A study of Rattus norvegicus with 9 samples.

Results

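The neurotrophins are secreted growth factors that keep neurons alive and adjust their synapses. The genes described here are Bdnf and Ntf3, which encode the ligands brain-derived neurotrophic factor and neurotrophin 3, and 4 genes of their receptors: Ntrk2, Ntrk3, Ngfr and Sort1. They were chosen by gene name and are 6 of the 30562 genes in the count table, with 1 identifier each. RNA was sequenced from the hippocampal region of male Sprague-Dawley rats, which entered the study at 6 to 8 weeks of age, in 3 groups of 3 libraries. The Ctrl group was the normal control. The Model group was fed a high-fat diet for 4 weeks, was injected with streptozotocin at 50 mg/kg, a toxin of the insulin-producing cells, and then went through 5 weeks of unpredictable mild stress. A fasting glucose of at least 16.7 mmol/L defined diabetes in that protocol. The ChryM group was given chrysophanol, a plant anthraquinone, by oral gavage for 14 days. The series title places that treatment in rats with diabetes and depression together, so ChryM is read here as model rats given chrysophanol; its dose is not given in the labels, and neither is a vehicle for the other groups. Nothing in the labels ties a library to 1 animal, so the spread between libraries that enters p-values, beside counting error, may in part be technical.

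Neurotrophins are made as proneurotrophins and cut to a mature form. Mature BDNF binds TrkB, the product of Ntrk2, and mature NT-3 binds TrkC, the product of Ntrk3. Both receptors are tyrosine kinases that recruit adaptors and switch on the Ras-ERK, PI3K-AKT and phospholipase C gamma routes. The uncut proforms bind p75NTR, the product of Ngfr, together with sortilin, the product of Sort1, which also sorts BDNF into the regulated secretory pathway. In the hippocampus, Bdnf is made mostly by excitatory neurons and rises with their activity, while Ntrk2 is made by neurons as a full-length kinase and by astrocytes mostly as a truncated form. A count per gene adds all these forms together.

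The libraries held between 631119 and 866048 counts each and detected between 13343 and 14256 genes. At this depth 1 count was worth 1.17 to 1.71 CPM (counts per 1e6 counts, scaled by TMM). Of the 6 genes, 3 had enough counts for the edgeR test (Bdnf, Ntrk2 and Sort1), as did 7073 genes of the table in all. Ntf3, Ntrk3 and Ngfr did not, and are given as counts. The libraries were made to keep the strand, but whether the authors' counting used it is not stated in the labels or headers. Mt-nd6, the mitochondrial mRNA read from the strand opposite to the other 12, had a mean of 42036 FPKM (fragments per kilobase of gene, scaled to library total), against 1659 to 7417 for those 12. Nr1d1 had a mean of 1028 FPKM, against 143 for Thra, which overlaps it on the other strand. Ppp3r1 had a mean of 10800 FPKM and Nfkbie one of 2113, against 530 for Snap25, 348 for Actb and 54.2 for Camk2a. How many of the counts under a symbol came from its own mRNA was not tested. This limit holds for every gene named below. Bdnf, Ntf3, Ngfr and Sort1 overlap no other gene of the RefSeq table of GRCr8, whereas Ntrk2 overlaps 7 long non-coding RNA genes and Ntrk3 overlaps 1. Sort1 has 2 neighbours within 5 kb, Psma5 and Mybphl.

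All 11 pan-neuronal markers had counts in each group, and so did 8 of the 10 markers of dentate granule neurons. Their levels, and those of other cell types, differed between the groups. All sums of markers, here and below, are CPM of the library total without TMM, unlike the CPM of single genes. The 11 pan-neuronal markers summed to 5046 to 5559 CPM in Ctrl, 5086 to 5265 CPM in Model and 3986 to 4273 CPM in ChryM. The summed level of 12 choroid plexus markers was 1579 to 1644 CPM in the Ctrl libraries, 4.54 to 12.7 CPM in Model, where 7 of the 12 were at 0, and 45.0 to 49.0 CPM in ChryM, where 6 were at 0. The 15 meningeal and mural markers summed to 239 to 250.3 CPM in Ctrl, 48.5 to 84.1 CPM in Model and 63.8 to 68.6 CPM in ChryM. The 14 myelin markers summed to 15689 to 16848 CPM, 8607 to 9518 CPM and 15201 to 16597 CPM in the same order. In such bulk tissue, fewer cells of a type and less RNA per cell cannot be told apart.

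Per gene length, the 6 genes kept a clear order at its top and its bottom. Sort1 was the highest in FPKM, at 17.0 to 21.1 over the 9 libraries, and stood above Ntrk2 in 9 of 9. Ntrk2 followed at 6.90 to 11.2 FPKM, and stood above Ntf3 (2.95 to 7.32 FPKM) in 8 of 9 libraries. Ntf3, Bdnf (1.28 to 5.10 FPKM) and Ntrk3 (0.447 to 4.83 FPKM) overlapped: Ntf3 was above Bdnf in 6 of 9 libraries and Bdnf above Ntrk3 in 5 of 9, so their order was not resolved. Ngfr was lowest in each library, at 0 to 0.419 FPKM. The high rank of Ntf3 per length rested on 4 to 11 counts per library.

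Bdnf encodes the best known activity-regulated ligand of the family. Its RNA starts at several alternative promoters that are switched on by different signals, and transcription factors such as CREB and USF act on some of them. RefSeq's promoter table for GRCr8 holds 6 windows of 300 bases for Bdnf, all on the plus strand of chromosome 3. A script searched both strands for the full cyclic AMP response element TGACGTCA, its first 5 letters TGACG, the E-box CACGTG and the GC box GGGCGG; any full element also counts as a TGACG match. None of the 6 windows held the full element, which 1.83% of all 33469 windows in that table held. One, window 4 in genome order, held TGACG on the minus strand (21.2% of all windows). Read on the plus strand as CGTCA, the match begins 35 bases before the start. This window is printed here because CREB, which binds this element, is the best known link from neuronal activity to Bdnf. The 250 bases before the start are at chr3:116637608-116637857 on the plus strand of GRCr8, with the match in capitals.
Bdnf window 4: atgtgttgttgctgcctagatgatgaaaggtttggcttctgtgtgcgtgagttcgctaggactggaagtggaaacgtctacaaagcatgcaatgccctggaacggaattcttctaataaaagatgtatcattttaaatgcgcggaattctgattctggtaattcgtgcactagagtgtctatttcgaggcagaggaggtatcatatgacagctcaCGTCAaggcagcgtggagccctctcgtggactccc
The second window held 1 CACGTG (6.42% of all windows) and the third held 2 GGGCGG (33.1% of all windows). A match is a description of letters and not a bound site. The deposited table sums all Bdnf transcripts, so which of these starts was used was not measured.

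Bdnf was counted 18, 25 and 17 times in Ctrl 1 to 3, 14, 10 and 6 times in Model 1 to 3, and 20, 19 and 7 times in ChryM 1 to 3. In CPM these were 21.9, 30.2 and 24.0 in Ctrl, 22.8, 17.1 and 8.26 in Model, and 25.2, 22.2 and 9.69 in ChryM. The Ctrl libraries lay close together, whereas Model 3 and ChryM 3 were low in their groups, and every pair of groups overlapped. The means were 25.4 ± 4.27 CPM in Ctrl, 16.1 ± 7.33 in Model and 19.0 ± 8.23 in ChryM (SD, n = 3 each).

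Ntf3, the ligand of TrkC, was counted 9, 11 and 4 times in Ctrl, 4, 4 and 5 times in Model, and 6, 8 and 7 times in ChryM. That is 10.96, 13.3 and 5.65 CPM in Ctrl, 6.52, 6.83 and 6.88 CPM in Model, and 7.57, 9.33 and 9.69 CPM in ChryM. The 3 ChryM libraries were above the 3 Model libraries, and the Ctrl libraries lay on both sides of the other groups. The spread within Ctrl exceeded the distance between any 2 group means.

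Ntrk2, the receptor of BDNF, was counted 57, 56 and 49 times in Ctrl, 72, 57 and 67 times in Model, and 55, 78 and 60 times in ChryM. These gave 69.4, 67.5 and 69.3 CPM in Ctrl, 117.4, 97.4 and 92.3 CPM in Model, and 69.3, 91.0 and 83.0 CPM in ChryM. The 3 Model libraries were above the 6 others, and the ChryM libraries ran from the level of Ctrl to just under that of Model. The means were 68.7 ± 1.05 CPM in Ctrl, 102.3 ± 13.3 in Model and 81.1 ± 10.9 in ChryM (SD, n = 3 each).

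Ntrk3, the receptor of NT-3, was counted 6, 6 and 11 times in Ctrl, 6, 1 and 5 times in Model, and 14, 8 and 6 times in ChryM. In CPM this was 7.31, 7.24 and 15.6 in Ctrl, 9.78, 1.71 and 6.88 in Model, and 17.7, 9.33 and 8.30 in ChryM. One library stood high in each of Ctrl and ChryM, 1 stood low in Model, and all groups overlapped.

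Ngfr, which encodes p75NTR, had 1 count in each Ctrl library and 0 counts in each of the 6 others. The 3 counts of Ctrl have an exact Poisson 95% interval of 0.619 to 8.77 counts, for counting error only. As a one-sided limit, a count of 0 in a group allows up to 3 counts (the two-sided Poisson interval reaches 3.69), which is 1.56 CPM over the Model libraries and 1.26 CPM over the ChryM libraries, and 3 counts in Ctrl were 1.27 CPM. No fold is given, since both sides are at or under that limit. In the brain p75NTR is best known from cholinergic neurons of the basal forebrain, and their 5 markers in the table summed to at most 2.75 CPM in any library. Of these markers, 3 were at 0 in Ctrl, 5 in Model and 4 in ChryM. Any part of such cells in the counts of Ngfr was not tested.

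Sort1, which encodes sortilin, was counted 96, 120 and 91 times in Ctrl, 89, 94 and 103 times in Model, and 115, 119 and 101 times in ChryM. The levels were 116.9, 144.7 and 128.6 CPM in Ctrl, 145.1, 160.6 and 141.8 CPM in Model, and 145.001, 138.8 and 139.8 CPM in ChryM. All 3 groups overlapped, and the ChryM libraries were the closest to each other. The means were 130.1 ± 14.0 CPM in Ctrl, 149.2 ± 10.03 in Model and 141.2 ± 3.33 in ChryM (SD, n = 3 each).

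**Figure D1:**
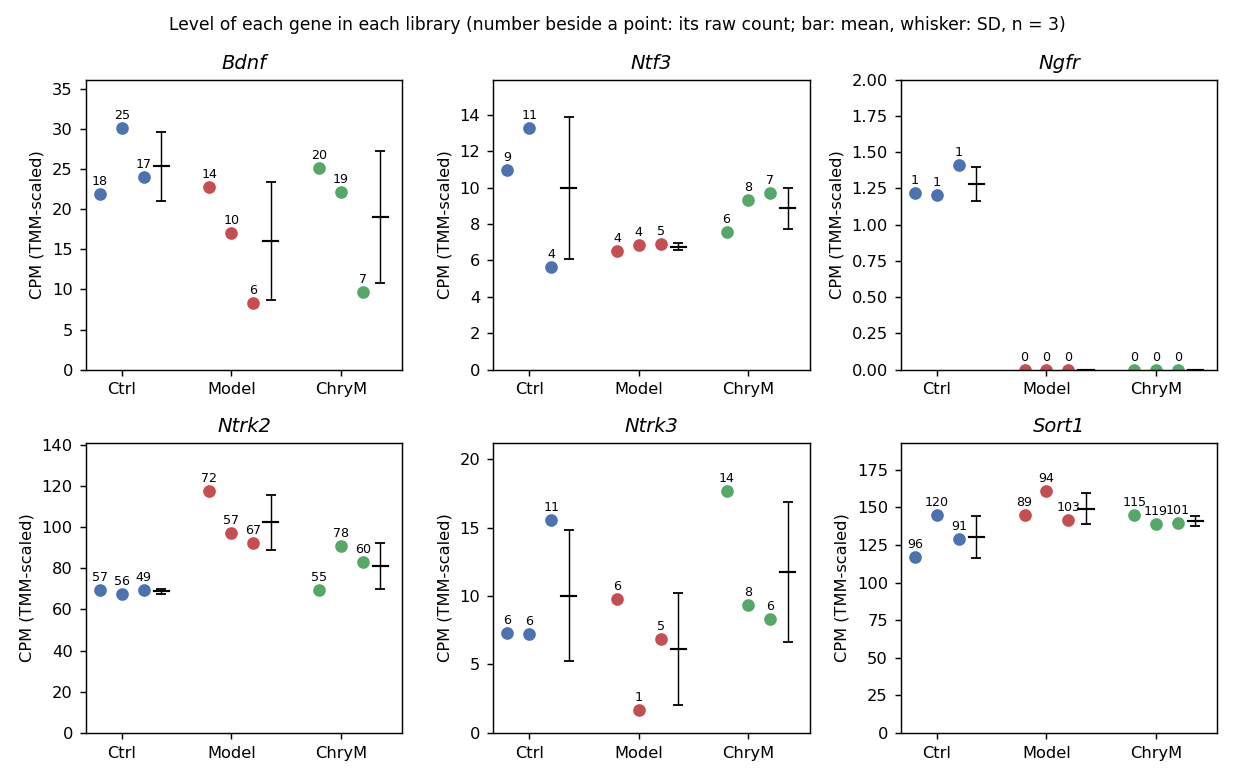
Level of each of the 6 genes in each library, in TMM-scaled CPM, with the raw count beside each point and the mean with its SD (n = 3) to the right of each group. The 3 Model libraries of Ntrk2 (92.3 to 117.4 CPM) sit above all other libraries, the Bdnf points overlap between groups, and Ngfr has 1 count in each Ctrl library only.

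Model was compared with Ctrl to see which of these genes differed after diabetes and stress. Ntrk2 was the gene that rose: it was 1.48 times as high in Model, with a log2 fold change of 0.57 (SE 0.16, 95% interval 0.25 to 0.88, adjusted p = 0.00712 by edgeR's quasi-likelihood test over 7073 genes). Its groups did not overlap, and the exact two-sided permutation test of its CPM gave p = 0.1, the smallest possible with 3 libraries against 3. That makes 1 of the 3 tested members called, beside 12.4% of all tested genes called in this comparison (7.04% higher and 5.39% lower) and 26.1% of tested genes whose groups did not overlap. The call did not hold without Model 1, the highest library (log2 fold change 0.45, adjusted p = 0.0982 by edgeR), or when limma was run on log2(FPKM + 1) (0.41, adjusted p = 0.213) or on log2(FPKM + 0.1) (0.45, adjusted p = 0.214). With library totals in place of TMM it held narrowly (0.45, adjusted p = 0.0488 by edgeR).

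Bdnf was 0.615 times as high in Model as in Ctrl, with a log2 fold change of -0.70 (SE 0.32, 95% interval -1.34 to -0.06). It was under an unadjusted p of 0.05 but did not pass the threshold (adjusted p = 0.158 by edgeR). The estimate depended on single libraries: it was -1.06 without Model 1 (adjusted p = 0.0576 by edgeR) and -0.34 without Model 3 (adjusted p = 0.653). Sort1 had a log2 fold change of 0.19 (SE 0.13, 95% interval -0.06 to 0.44, adjusted p = 0.375 by edgeR). Thus the scaled counts under the receptor gene Ntrk2 were higher in Model, while no change of its ligand's gene was called.

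Of the genes with few counts, Ntf3 had 13 counts in Model and 24 in Ctrl. Scaled for depth, the ratio was 0.663, with an exact binomial 95% interval of 0.310 to 1.36, and the exact permutation test of its CPM gave p = 0.4. Ntrk3 had 12 counts against 23, a ratio of 0.639 (0.290 to 1.34, exact permutation p = 0.4). Ngfr had 0 against 3 counts, and its exact permutation p was 0.1, the smallest the design allows. For Ntf3 and Ntrk3 the intervals reach from well below 1 to above 1, so a difference was not detectable at this depth.

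Levels of several hippocampal cell type markers moved between the same groups. The summed level of 10 dentate granule neuron markers was 224 to 290 CPM in Ctrl, 145 to 154 CPM in Model and 220 to 232 CPM in ChryM. Of its 5 tested markers, 3 fell in Model against Ctrl and 3 rose in ChryM against Model. The 11 interneuron markers summed to 427 to 458 CPM in Ctrl, 517 to 569 CPM in Model and 408 to 480.3 CPM in ChryM, and 2 of the 6 tested rose in Model. The 12 astrocyte markers summed to 1593 to 1841 CPM in Ctrl, 1501 to 1559 CPM in Model and 1438 to 1474 CPM in ChryM, with 2 of 10 tested lower in Model and none higher. These sums are not scaled by TMM, whose factors were 1.01 to 1.07 in Ctrl and 0.956 to 0.969 in Model. A small gap, such as that between the astrocyte sums of Ctrl and Model, may therefore not hold on the TMM scale. The 10 CA3 and mossy cell markers summed to 116 to 140 CPM in Ctrl, 127 to 144 CPM in Model and 100 to 120 CPM in ChryM. Of the 4 tested, none was called in Model against Ctrl, and 1 fell in ChryM against Model. The 8 CA1 and subiculum markers in the table summed to 378 to 431 CPM in Ctrl, 304 to 352 CPM in Model and 381 to 484 CPM in ChryM. Of the 6 tested, 1 fell in Model against Ctrl and 1 rose in ChryM against Model. Dentate granule neurons express Bdnf, and astrocytes and neurons both express Ntrk2. The part of these cell types in the values of Bdnf and Ntrk2 was not tested.

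ChryM was compared with Model to see which of these genes differed after chrysophanol. None of the 3 tested members passed edgeR's test, beside 8.27% of all tested genes (3.86% higher and 4.41% lower). At an unadjusted p under 0.05 there was 1, Ntrk2, and DESeq2 gave none below an unadjusted p of 0.05. Ntrk2 was 0.798 times as high in ChryM as in Model, with a log2 fold change of -0.33 (SE 0.15, 95% interval -0.63 to -0.02, adjusted p = 0.211 by edgeR). Its groups did not overlap, which held for 23.6% of all tested genes, and leaving out 1 library at a time moved the log2 fold change between -0.42 and -0.22 with no call. Between the same groups 7 of the 11 tested pan-neuronal markers fell and none rose, with a median log2 fold change of -0.34 (Snap25 -0.34, Nefm -0.84). Their part in the value of Ntrk2 was not tested.

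Bdnf in ChryM against Model had a log2 fold change of 0.31 (SE 0.34, 95% interval -0.37 to 0.99, adjusted p = 0.696 by edgeR), and the sign turned without Model 3 (-0.04). Sort1 had a log2 fold change of -0.07 (SE 0.12, 95% interval -0.32 to 0.17, adjusted p = 0.813 by edgeR). Ntf3 had 21 counts against 13, a ratio of 1.31 (exact binomial 95% interval 0.626 to 2.85), with groups that did not overlap and an exact permutation p of 0.1, the smallest possible. Ntrk3 had 28 counts against 12, a ratio of 1.89 (0.932 to 4.09, exact permutation p = 0.3). ChryM 1 was the highest and Model 2 the lowest of these libraries. Ngfr had 0 counts in both groups.

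ChryM against Ctrl shares its libraries with the other comparisons and adds no independent data. None of the 3 tested members was called by edgeR or had an unadjusted p under 0.05, by edgeR or by DESeq2, beside 18.8% of all tested genes called (9.83% higher and 8.96% lower) and 31.7% whose groups did not overlap. Ntrk2 had a log2 fold change of 0.24 (SE 0.16, 95% interval -0.07 to 0.56, adjusted p = 0.319 by edgeR). Bdnf had one of -0.39 (SE 0.29, 95% interval -0.96 to 0.18, adjusted p = 0.388 by edgeR), and Sort1 one of 0.12 (SE 0.12, 95% interval -0.12 to 0.36, adjusted p = 0.561 by edgeR). The ratio of summed counts was 0.869 for Ntf3 (exact binomial 95% interval 0.460 to 1.63) and 1.21 for Ntrk3 (0.672 to 2.20), and Ngfr had 0 against 3 counts. The direction of Ntf3 turned without Ctrl 2 and that of Ntrk3 without ChryM 1 (log2 ratios 0.06 and -0.14).

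**Figure D2:**
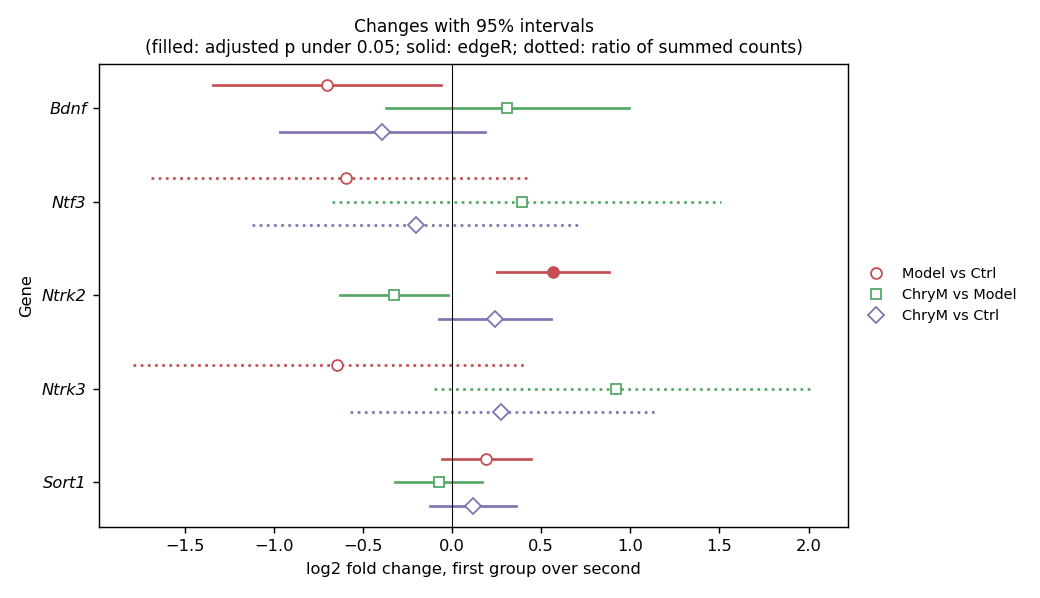
Log2 fold change of 5 of the genes in each comparison with its 95% interval, from edgeR (solid) or from the ratio of summed counts (dotted); filled symbols passed an adjusted p under 0.05. Ntrk2 in Model vs Ctrl (0.57, interval 0.25 to 0.88) is the filled symbol; the intervals of Ntf3 and Ntrk3 are the widest, and Ngfr is left out because it had counts in Ctrl only.

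**Figure D3:**
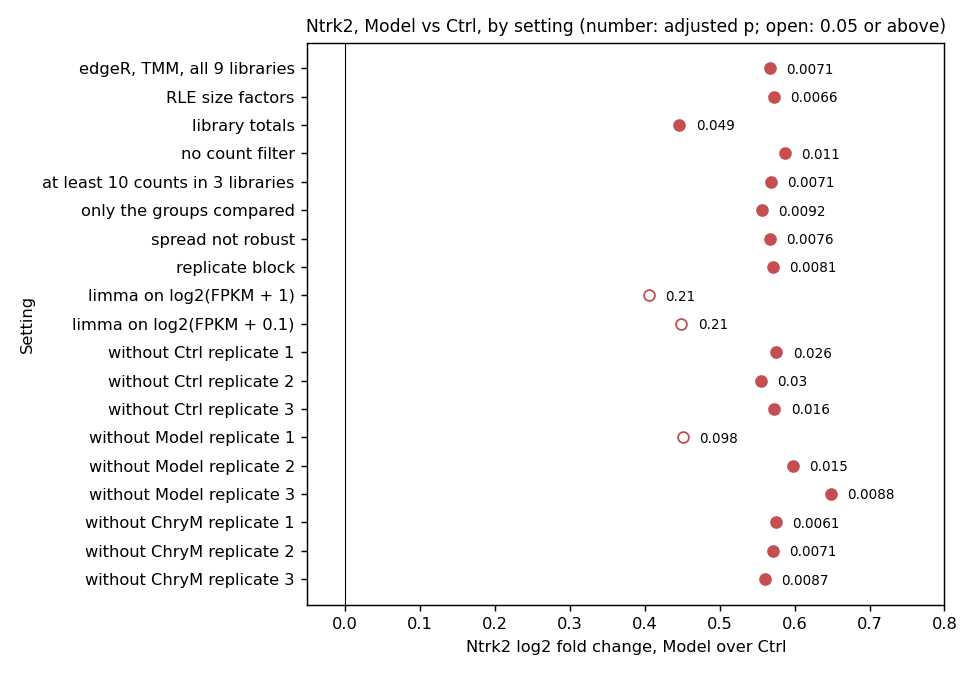
Ntrk2 log2 fold change, Model over Ctrl, under each setting that gave an adjusted p (number beside each point), with open points at 0.05 or above. The values run from 0.41 to 0.65, and the open points are limma on FPKM and the fit without Model 1; DESeq2 gave no adjusted p for this gene and is not drawn.

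Genes that act around the neurotrophins were counted in 8 lists. The share called of each list stands beside 12.4% of all tested genes in Model against Ctrl, 8.27% in ChryM against Model and 18.8% in ChryM against Ctrl. In Model against Ctrl it was 33.3% for the other ligands and receptors (1 of 3), 18.2% for processing, 22.2% for Trk adaptors, 9.09% for the Ras-ERK arm, 26.9% for p75NTR partners, 13.3% for Bdnf regulators, 12.5% for BDNF-responsive genes and 30.8% for other neurotrophic factors. The Ras-ERK arm, the Bdnf regulators and the BDNF-responsive genes were thus near the share of all genes. In ChryM against Model the shares were 0%, 18.2%, 16.7%, 9.09%, 19.2%, 0%, 18.8% and 7.69% in the same order. With 3 to 26 tested genes a list, each of these shares rests on 0 to 7 genes. In ChryM against Ctrl the shares in that order were 0%, 36.4%, 22.2%, 0%, 30.8%, 26.7%, 25% and 38.5%. The p75NTR partners had the most called genes there, with 1 higher and 7 lower of 26 tested. Of 9 other ligands and receptors, 8 were in the table and 3 had enough counts to be tested: Sorl1, Sorcs2 and Sorcs3. Sorl1, a sorting receptor related to sortilin that carries TrkB, fell in Model from 68.0 ± 12.9 to 43.5 ± 8.89 CPM (SD, n = 3 each), a log2 fold change of -0.63 (SE 0.20, adjusted p = 0.0189 by edgeR). The call did not hold without Ctrl 1 (-0.45, adjusted p = 0.228), Model 1 (-0.56, 0.0842) or Model 2 (-0.54, 0.1125). Sorcs2 and Sorcs3 had log2 fold changes of 0.17 and -0.35 (adjusted p = 0.828 and 0.672 by edgeR). In ChryM against Model, 0 of the 3 were called by edgeR, 0 had an unadjusted p under 0.05, and DESeq2 gave an adjusted p to 1 of them and did not call it.

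Of 11 tested genes of proneurotrophin processing and secretion, 1 rose and 1 fell in Model against Ctrl, with a median log2 fold change of -0.02, the same as over all tested genes. Serpini1, which encodes neuroserpin, the brain's inhibitor of tPA, a protease that acts through plasmin on proBDNF, fell from 100.7 ± 4.08 to 65.3 ± 5.56 CPM (log2 fold change -0.63, SE 0.16, adjusted p = 0.00295 by edgeR). It was also lower in ChryM than in Ctrl, at 62.5 ± 4.80 CPM (-0.68, SE 0.16, adjusted p = 0.000361 by edgeR). Cpe, which encodes carboxypeptidase E, a sorting receptor that carries proBDNF to secretory granules, fell in ChryM to 848 ± 10.4 CPM from 1068 ± 79.8 in Model (-0.33, SE 0.07, adjusted p = 0.00073 by edgeR) and 1129 ± 43.2 in Ctrl. The pan-neuronal markers were lower in ChryM than in Model as well (7 of 11 called, median -0.34), and their part in the fall of Cpe was not tested. ChryM against Model had 0 higher and 2 lower in this list (median -0.19), and ChryM against Ctrl 0 higher and 4 lower (median -0.11). Furin, the main protease of proneurotrophins inside the cell, had a log2 fold change of -0.53 in Model (adjusted p = 0.389 by edgeR).

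Of 18 tested Trk adaptors and immediate effectors, 1 rose and 3 fell in Model against Ctrl (median -0.03), and 3 rose and none fell in ChryM against Model (median 0.23, against 0.00146 over all tested genes). Ptpn11, which encodes SHP2, a phosphatase that couples Trk receptors to Ras, rose at each step: 73.2 ± 3.46 CPM in Ctrl, 105.1 ± 6.71 in Model and 201.2 ± 12.1 in ChryM (SD, n = 3 each). Its log2 fold change was 0.52 in Model against Ctrl (SE 0.15, adjusted p = 0.0109 by edgeR), which did not hold without Model 3 (0.50, adjusted p = 0.0572) or with library totals (0.40, adjusted p = 0.0697). In ChryM against Model it was 0.93 (SE 0.13, adjusted p = 4.26e-10 by edgeR). Plcg1, the phospholipase C gamma that TrkB binds, rose in ChryM against Model from 50.9 ± 13.2 to 77.8 ± 3.64 CPM (0.61, SE 0.18, adjusted p = 0.0182 by edgeR). That call did not hold without Model 2 (0.47, adjusted p = 0.187), Model 3 (0.57, 0.0996) or ChryM 2 (0.58, 0.0828), nor with DESeq2 (0.61, 0.116).

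In the Ras-ERK and CREB arm, 1 of 11 tested genes rose and none fell in Model (median -0.16), and 1 rose and none fell in ChryM against Model (median 0.17). Hras, one of the Ras switches, rose in Model from 116.2 ± 8.02 to 158.5 ± 16.7 CPM (0.45, SE 0.13, adjusted p = 0.00744 by edgeR); it did not pass without Ctrl 2 (0.40, adjusted p = 0.0576), without Model 1 (0.39, 0.0676) or with library totals (0.33, 0.0705), and it overlaps Lrrc56. Spry2, an inhibitor of Ras-ERK signalling that this signalling induces, rose in ChryM against Model from 12.9 ± 0.911 to 27.3 ± 2.13 CPM (1.07, SE 0.34, adjusted p = 0.0197 by edgeR). Leaving out 1 library of these groups other than ChryM 3 put its adjusted p between 0.0605 and 0.0793 with log2 fold changes of 1.01 to 1.12.

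Of 26 tested p75NTR partners and effectors, 3 rose and 4 fell in Model (median 0.10). The 3 that rose were Bex1 and Bex3, which encode adaptors of p75NTR, and Lingo1, the gene of a co-receptor of p75NTR that curbs axon growth. Bex1 went from 335.2 ± 21.4 to 426.6 ± 22.6 CPM (0.35, SE 0.09, adjusted p = 0.00297 by edgeR), but did not pass with library totals (0.23, adjusted p = 0.0573). Lingo1 went from 114.8 ± 15.7 to 152.4 ± 9.15 CPM (0.41, SE 0.13, adjusted p = 0.0217 by edgeR), and did not pass without Ctrl 2 (0.30, adjusted p = 0.202), Model 1 (0.37, 0.0842) or Model 2 (0.39, 0.0758), nor with library totals (0.29, 0.14) or DESeq2 (0.43, 0.0542). Bex3 (0.25, adjusted p = 0.0472 by edgeR) lost its call in 13 of 19 alternatives, 6 of them leaving out 1 library (0.19 to 0.27). Mag, which encodes a myelin protein that signals through the Nogo receptor and p75NTR, fell from 261.8 ± 3.21 to 131.1 ± 4.97 CPM (-0.998, SE 0.12, adjusted p = 3.08e-13 by edgeR) and was at 206.2 ± 31.4 CPM in ChryM, a rise against Model of 0.65 (SE 0.12, adjusted p = 1.5e-05 by edgeR). Mag is itself a myelin marker, and 11 of 13 tested myelin markers fell in Model while 7 rose in ChryM against Model. Rtn4, the gene of Nogo, was 153.6 ± 22.9 CPM in Ctrl and 110.3 ± 9.80 in Model (-0.49, SE 0.13, adjusted p = 0.00461 by edgeR), and did not pass without Ctrl 2 (-0.39, adjusted p = 0.0767) or Model 3 (-0.41, 0.0678). ChryM against Model had 1 higher and 4 lower (median -0.20). Lingo1 was among the latter, at 102.3 ± 10.8 CPM in ChryM (-0.56, SE 0.13, adjusted p = 0.00147 by edgeR). It overlaps Atp5mgl1, and limma on log2(FPKM + 1) gave an adjusted p of 0.145.

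Among regulators of Bdnf transcription, 0 of 15 tested genes rose and 2 fell in Model (median -0.23), and 0 were called in ChryM against Model by edgeR (median 0.10), where 1 had an unadjusted p under 0.05 and DESeq2 called 0 of the 4 to which it gave an adjusted p. Nr3c2, the gene of the mineralocorticoid receptor, fell from 55.1 ± 4.72 to 27.1 ± 4.78 CPM (-1.02, SE 0.24, adjusted p = 0.000443 by edgeR) and stood at 28.7 ± 8.77 CPM in ChryM, which also differed from Ctrl (-0.96, SE 0.22, adjusted p = 0.000267 by edgeR). Camk2a, a calcium-dependent kinase, fell from 181.9 ± 9.39 to 133.9 ± 21.2 CPM (-0.44, SE 0.12, adjusted p = 0.00568 by edgeR), and not without Model 2 (-0.35, adjusted p = 0.0896). Crtc1, a co-activator of CREB, had a log2 fold change of -0.02 in Model (adjusted p = 0.977 by edgeR).

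Of 16 tested genes known to respond to BDNF, 2 rose and none fell in Model (median 0.08), and 1 rose and 2 fell in ChryM against Model (median 0.05). Vgf, a secreted peptide precursor, rose in Model from 152.7 ± 9.42 to 210.4 ± 17.0 CPM (0.46, SE 0.11, adjusted p = 0.00213 by edgeR) and fell in ChryM to 116.5 ± 18.3 CPM (-0.86 against Model, SE 0.12, adjusted p = 3.52e-09 by edgeR). Its rise in Model was not called by limma on log2(FPKM + 1) (0.34, adjusted p = 0.104). Arc, an activity-regulated gene of the synapse, was 17.2 ± 3.30 CPM in Ctrl and 18.1 ± 3.07 in Model, and rose in ChryM to 38.2 ± 2.44 CPM (1.07 against Model, SE 0.29, adjusted p = 0.0044 by edgeR). Egr1, another such gene, had a log2 fold change of -0.90 in Model (adjusted p = 0.0525 by edgeR).

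Other neurotrophic factors and receptors had 13 tested genes, of which 1 rose and 3 fell in Model (median -0.42). The 3 that fell were growth factors. Igf2 went from 112.3 ± 20.8 to 9.78 ± 1.24 CPM (-3.47, SE 0.34, adjusted p = 4.71e-28 by edgeR), Mdk (midkine) from 81.6 ± 7.72 to 34.9 ± 1.63 CPM (-1.23, SE 0.20, adjusted p = 2.39e-07) and Ptn (pleiotrophin) from 317.0 ± 20.0 to 211.5 ± 25.1 CPM (-0.59, SE 0.10, adjusted p = 1.21e-06). Igf2 is one of the meningeal markers whose sum fell with it, and Mdk overlaps Chrm4. In ChryM, Ptn was at 274.5 ± 3.21 CPM, above Model (0.38, SE 0.10, adjusted p = 0.00689 by edgeR), but not without Model 3 (0.31, adjusted p = 0.125). Limma on log2(FPKM + 1) also put the adjusted p above the threshold for Sorl1 (0.0997), Ptpn11 (0.128), Hras (0.124) and Rtn4 (0.0535) in Model against Ctrl. The same held for Bex1 (0.0768), Lingo1 (0.362) and Bex3 (0.351) in that comparison, and for Plcg1 (0.0886) in ChryM against Model. Bex1, Cpe, Mag, Nr3c2, Arc and Igf2 overlap other gene entries of RefSeq, and Rtn4 overlaps Eml6, so their counts could hold reads of those. Over all 8 lists, 20 genes named by rule in Model against Ctrl included 8 that stayed called under every alternative that gave an adjusted p; for ChryM against Model it was 5 of 14 and for ChryM against Ctrl 12 of 24.

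**Figure D4:**
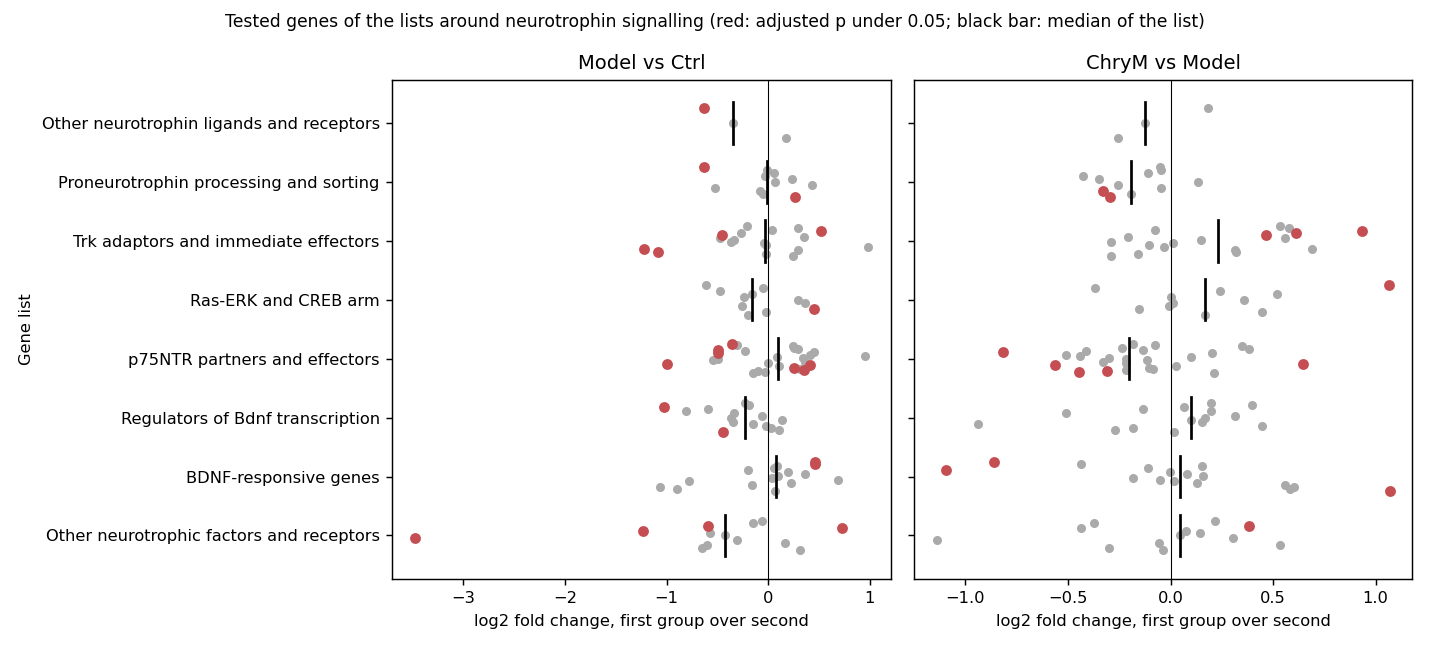
Log2 fold change of each tested gene of the 8 lists in Model vs Ctrl (left) and ChryM vs Model (right), with called genes in red and the median of each list as a bar. Called genes lie on both sides of 0 in 4 of the 8 lists on the left and in 2 of the 8 on the right; the far left point is Igf2 at -3.47.

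The genes whose log2 CPM followed a member most closely over the 9 libraries were searched among 6656 tested genes with a name. For Bdnf these were Akap17b (Pearson r = 0.956), Fam131b (0.925) and Mff (0.921). For Ntrk2 they were Or14c39 (0.928), Ypel3 (0.908) and Acot7 (0.903), and for Sort1 they were Rapgef4 (0.943), Brsk1 (0.921) and Brms1 (0.919). Fam131b overlaps Clcn1, Brsk1 overlaps Tmem150b, and Rapgef4 overlaps other gene entries of RefSeq, so their counts could hold reads of those. The correlations are descriptions over 9 libraries that share their 3 groups and their scaling, picked as the highest of many values.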

How the data were processed

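One deposited table holds raw whole-number counts of each gene, and the other its FPKM and gene length in bases, per the file headers. The submitters' processing notes name HISAT2 and DESeq2 with no version. The tool that counted, its strand setting, the build and the gene annotation are not stated in the labels or headers. The authors' FPKM equalled count over length and library total in 100% of values (relative tolerance 1e-06).

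Counts were filtered (filterByExpr, 7073 genes), TMM-scaled (factors 0.956 to 1.07) and fitted on all 9 libraries with edgeR 4.0.16 in R 4.3.3 (glmQLFit robust, glmQLFTest, two-sided, 6 residual degrees of freedom), with Benjamini-Hochberg adjustment over all tested genes and a threshold of 0.05. Printed SEs are the larger of test and counting error. For the tested members these were close. In Model against Ctrl they were 0.324 and 0.323 for Bdnf, 0.159 and 0.153 for Ntrk2, and 0.126 and 0.119 for Sort1. The edgeR p-values of these genes thus rest largely on counting error. For genes under the filter, ratios of summed counts have exact binomial 95% intervals and CPM an exact permutation test. The binomial and Poisson intervals and limits cover counting error only, whereas the 95% intervals of edgeR use the printed SEs. Members and lists were chosen with earlier results of these data known. Of each list, up to 4 called genes per comparison, by smallest p, could be named, and for each tested member the 3 genes with the highest r (log2 CPM, prior count 2); others named were chosen after their values were seen. Alternatives were RLE factors, library totals, DESeq2 1.42.0 (all genes with no filter), other filters, other fits, limma 3.58.1 on FPKM, and leaving out each library. The same alternatives were added for the named list genes after seeing the data. The pipeline was tested on simulated data. One withheld item is not reported here.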

Additional observations from a re-analysis of the deposited data

How the results depend on the processing

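The Ntrk2 rise in Model against Ctrl lost its call with limma on log2(FPKM + 1) (0.406, adjusted p = 0.213), with limma on log2(FPKM + 0.1) (0.449, adjusted p = 0.214) and without Model 1. Leaving out 1 library gave 0.451 to 0.648, with adjusted p of 0.00609 to 0.0982 by edgeR. DESeq2 gave no adjusted p for it (log2 fold change 0.60, unadjusted p = 0.00635), nor for Bdnf, Ntf3, Ntrk3 and Ngfr in any comparison. Directions turned when 1 library was left out for Bdnf in ChryM against Model (-0.0445 without Model 3, to 0.658), for Ntf3 in ChryM against Ctrl (-0.451 to 0.0588 without Ctrl 2) and for Ntrk3 in ChryM against Ctrl (-0.137 without ChryM 1, to 0.701). No other member's call or direction changed in the alternatives run.

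The counts of called genes (879 for Model vs Ctrl, 585 for ChryM vs Model, 1329 for ChryM vs Ctrl) became 440, 262 and 591 with DESeq2, 553, 352 and 793 with limma on log2(FPKM + 1), and 521, 351 and 772 on log2(FPKM + 0.1). Leaving out 1 library gave 615 to 886, 390 to 619 and 971 to 1349, lowest without Ctrl 2, ChryM 2 and Ctrl 1 in turn. Library totals shifted the median of all genes by -0.12, 0.06 and -0.06 (log2) and turned the split of higher against lower calls from 498 and 381 to 276 and 655, from 273 and 312 to 373 and 252, and from 695 and 634 to 520 and 819. The direction of Bdnf, Ntrk2 and Sort1 was the same with library totals in all 3 comparisons. Same-numbered libraries showed no shared deviation over the tested genes (correlations of -0.03 to 0.04). Those genes had a median of 19 to 27 counts per library, so counting error could hide a pairing, and none was excluded. With the replicate number as a block, the counts were 855, 586 and 1317, and Ntrk2 in Model vs Ctrl was 0.571 (adjusted p = 0.00806 by edgeR); no member's call changed. Depth limits Ntf3, Ntrk3 and Ngfr most.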
